A study of Mus musculus with 16 samples.

Results

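The 8 genes described here encode transcription factors of oogenesis: Nobox, Figla, Lhx8, Sohlh1, Sohlh2, Taf4b, Tbpl2 and Gtf2a1l. They were taken by gene name from a table of 28618 transcript entries, in which each name occurred once, and their levels were read in all 16 libraries. RNA was sequenced from germinal vesicle (GV) oocytes, held in prophase of the first meiosis, and from metaphase II (MII) eggs collected from the oviduct after hormone treatment. Each stage was taken from wildtype (WT) females and from Psma7 conditional knockout females (Psma7 cKO, homozygous for Psma7 flox and carrying Zp3-Cre), with 4 libraries in each of the 4 groups. All females were 3 to 4 weeks old and had received PMSG, and those giving eggs had also received hCG. Only the eggs were labelled as treated with 0.3% hyaluronidase, so hCG and this enzyme go with stage. The study reports that some ovulated Psma7 cKO oocytes had not completed the first meiosis or were still at the GV stage. The sources used here do not say whether such oocytes were kept out of the pools labelled MII. In Psma7 cKO females the Zp3 promoter drives CRE in growing oocytes, so that Psma7, an alpha subunit of the 20S proteasome core, is deleted only after oocyte growth has begun. Each library pooled 5 oocytes according to the sample labels, while the study's methods give another number, and how many mice lay behind a pool is not given in the sources used here.

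Oocytes use a transcription programme of their own. NOBOX and LHX8 are homeodomain proteins, FIGLA, SOHLH1 and SOHLH2 are basic helix-loop-helix proteins that bind E-boxes, and together they are required for primordial follicles to form and to start growing. A second set of factors replaces parts of the general RNA polymerase II machinery in germ cells. TBPL2 stands in for the TATA-binding protein TBP in growing oocytes, GTF2A1L is a germline form of the TFIIA subunit GTF2A1, and TAF4B is a gonadal form of the TFIID subunit TAF4. Fully grown oocytes are nearly silent in transcription and break down many of their stored transcripts during maturation, so the transcripts of these factors in a GV oocyte are largely a store from growth.

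The libraries held an estimated 10.5 to 15.7 M fragments each. Psma7 itself averaged 165 ± 25.3 FPKM (fragments per kilobase of transcript per 1 M fragments, SD, n = 4) in WT GV oocytes and 14.6 ± 2.82 FPKM in Psma7 cKO GV oocytes. Its egg values were 126 ± 32.1 FPKM for WT and 39.7 ± 20.2 FPKM for Psma7 cKO, and the genotypes overlapped at neither stage, as their labels require. The residual level was uneven among Psma7 cKO eggs, with 13.6, 50.3, 35.0 and 59.9 FPKM in replicates 1 to 4. From GV oocyte to egg Psma7 changed by 1.27 on the log2 scale in Psma7 cKO (adjusted p = 0.019, limma). In WT it changed by -0.41 (adjusted p = 0.041, limma), and in both genotypes the values of the stages overlapped. Of 14 cumulus and granulosa markers, 11 had a group mean under 1 FPKM in every group, and the 14 summed to between 15.9 and 23.3 FPKM, against 8813 to 11516 FPKM for 7 oocyte markers. FPKM is a share of a library primed with oligo-dT. It does not show how many oocytes a pool yielded or how much RNA each held, and less of a transcript cannot be told apart from the same transcript with a shorter poly(A) tail.

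In WT GV oocytes the 8 factors spanned more than 3 orders of magnitude. Nobox was highest with 221 ± 31.6 FPKM (SD, n = 4), a level above that of 99.0% of all entries. Lhx8 followed with 119 ± 15.5 FPKM and Gtf2a1l with 95.3 ± 8.64 FPKM, and the values of these genes overlapped each other but not those of Nobox. Tbpl2 (20.3 ± 4.84 FPKM) and Figla (18.5 ± 4.08 FPKM) formed a middle pair whose values overlapped. Taf4b (5.99 ± 1.73 FPKM) and Sohlh2 (5.39 ± 1.15 FPKM) formed a low pair, and Sohlh1 was near 0. The order was the same in Psma7 cKO GV oocytes. In WT eggs Gtf2a1l had moved to the top with 55.0 ± 2.51 FPKM, although its values overlapped those of Nobox at 44.8 ± 5.17 FPKM, and Figla had moved from the fifth place to the seventh with 1.60 ± 0.426 FPKM.

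**Figure D1:**
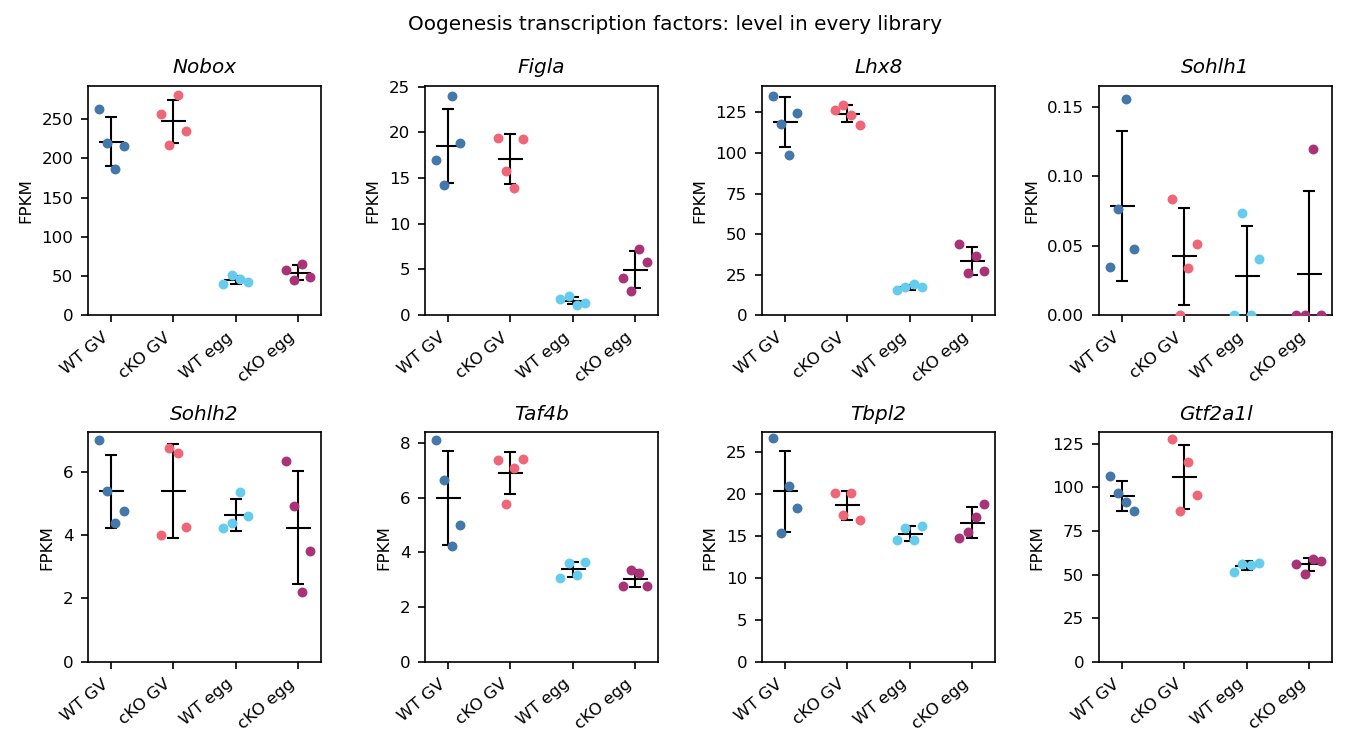
Level of the 8 factors in FPKM (vertical axis, from 0, its own scale in each panel) in each of the 16 libraries, with points for replicates 1 to 4 from left to right and bars for the mean and SD of each group (n = 4). Nobox, Figla and Lhx8 lie far lower in eggs than in GV oocytes, Figla and Lhx8 lie higher in all 4 Psma7 cKO eggs than in any WT egg, and Sohlh1 stays at or below 0.156 FPKM.

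The start-site regions of 4 factors are shown because they are the genes whose levels set the pattern described here: Nobox with the highest level, Figla and Lhx8 with a genotype difference in eggs, and Sohlh1 with hardly a fragment. Each is the stretch of up to 250 bases before the RefSeq transcription start (GRCm38.p6), written 5′ to 3′ on the strand of the gene, and capitals mark E-boxes (CANNTG, the same on both strands). Nobox lies at chr6:43309555-43309804 (minus strand), Figla at chr6:86016941-86017190 (plus strand), Lhx8 at chr3:154330660-154330810 (minus strand, 151 bases, the rest being annotated exon) and Sohlh1 at chr2:25847249-25847498 (minus strand). The Figla stretch lies before the RefSeq start but inside the GENCODE M21 gene, which begins at 86016171, and outside its annotated exons.
Nobox: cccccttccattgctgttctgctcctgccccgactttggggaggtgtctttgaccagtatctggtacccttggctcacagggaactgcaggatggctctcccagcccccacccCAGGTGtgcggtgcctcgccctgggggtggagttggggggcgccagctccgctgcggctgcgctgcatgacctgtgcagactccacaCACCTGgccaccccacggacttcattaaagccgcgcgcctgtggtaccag
Figla: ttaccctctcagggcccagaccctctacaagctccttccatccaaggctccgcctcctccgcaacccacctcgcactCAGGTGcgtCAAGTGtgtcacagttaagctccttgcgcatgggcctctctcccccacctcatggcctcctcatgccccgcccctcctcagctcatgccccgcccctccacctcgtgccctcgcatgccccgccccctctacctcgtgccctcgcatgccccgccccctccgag
Lhx8: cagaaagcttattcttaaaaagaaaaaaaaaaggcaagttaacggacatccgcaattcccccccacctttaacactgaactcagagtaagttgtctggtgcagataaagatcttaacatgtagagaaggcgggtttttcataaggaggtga
Sohlh1: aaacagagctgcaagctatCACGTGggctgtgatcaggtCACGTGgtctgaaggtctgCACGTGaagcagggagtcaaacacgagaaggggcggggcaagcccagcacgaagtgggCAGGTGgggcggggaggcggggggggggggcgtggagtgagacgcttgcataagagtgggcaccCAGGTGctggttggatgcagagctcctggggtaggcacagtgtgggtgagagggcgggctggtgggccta

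E-boxes were present in 5 of the 7 factors with a RefSeq promoter entry. Sohlh1 held 5, of which 3 were CACGTG, Tbpl2 held 4, Nobox and Figla 2 each, Sohlh2 1, and Lhx8 and Gtf2a1l none. Of 32851 mouse promoters of the same length, 66.2% held a CANNTG, 6.02% a CACGTG, and 1.15% held at least 5 CANNTG. None of the 7 held TAATTG or TAATTA, the core bound by NOBOX, on either strand (11.2% of all promoters did), and none held TATAAA on either strand (12.4%). A match is a run of letters and not a bound site, and no binding was measured in these libraries.

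The ends of the transcripts are shown because the libraries were primed at the poly(A) tail. Capitals mark the polyadenylation signal (AATAAA or ATTAAA) within the last 50 bases of the main GENCODE transcript, in the 30 bases that end with it. It was found in 6 of the 8 factors, against 75.7% of 20372 coding genes whose 3′ UTR has at least 60 bases. The estimated gene lengths behind the FPKM differ from these transcripts, for example 1286 against 759 bases for Figla. Whether the ends shown are those of the measured transcripts was not tested.
Nobox: ccatcctaggcagtgcatgcaataAATAAA
Figla: tgagtatttttcatgtaaaatataATTAAA
Lhx8: tacaaagcctaccatcctaagttcATTAAA
Sohlh2: accctgcaatccattgttttgtttAATAAA
The cytoplasmic polyadenylation element (TTTTAT or TTTTAAT on the transcript strand), the motif through which maternal transcripts gain longer tails, occurred within the 100 bases before the signal in Sohlh2 and in none of the other 5 with a signal. Sohlh2 held 2 copies, the nearer 43 bases before the signal, and the nearer one is in capitals below. Among coding genes with a signal, 16.5% held such an element.
Sohlh2 element: cttacacaaacaTTTTATtgttaaagtgtc

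Nobox (chr6:43303674-43309554, minus strand, 9 exons in the main GENCODE M21 transcript) read 263, 219, 187 and 216 FPKM in WT GV oocytes and 256, 216, 280.2 and 235 FPKM in Psma7 cKO GV oocytes. In eggs it read 39.2, 51.5, 45.7 and 42.9 FPKM in WT and 57.8, 45.2, 65.4 and 49.1 FPKM in Psma7 cKO. The genotypes overlapped at both stages, while no egg reached the level of any GV library. Nobox fell from GV oocyte to egg by 2.30 ± 0.12 (SE) on the log2 scale in WT (4.93-fold, adjusted p = 2.1e-08, limma) and by 2.19 ± 0.13 in Psma7 cKO (4.57-fold, adjusted p = 1.8e-06). WT eggs kept 20.2% of the mean GV level and Psma7 cKO eggs 22.0%.

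Figla (chr6:86016171-86020996, plus strand, 3 exons), whose protein activates the zona pellucida genes, read 16.9, 14.3, 23.9 and 18.8 FPKM in WT GV oocytes and 19.3, 15.7, 13.9 and 19.3 FPKM in Psma7 cKO GV oocytes. In eggs it read 1.82, 2.07, 1.14 and 1.36 FPKM in WT and 4.03, 2.68, 7.28 and 5.85 FPKM in Psma7 cKO. The GV groups overlapped, and all 4 Psma7 cKO eggs lay above all 4 WT eggs. These egg values rest on few fragments: WT eggs held 29, 39, 21 and 23, and Psma7 cKO eggs 76, 44, 126 and 99. Figla fell by 3.55 ± 0.21 on the log2 scale in WT, the steepest fall of the 7 tested factors (11.7-fold, adjusted p = 7.5e-08), which left 8.65% of the GV mean. In Psma7 cKO it fell by 1.87 ± 0.29 (3.65-fold, adjusted p = 0.00030), which left 29.1%.

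Lhx8 (chr3:154306294-154330659, minus strand, 9 exons), a LIM homeodomain factor, read 135, 118, 98.5 and 125 FPKM in WT GV oocytes and 126, 129.9, 124 and 117 FPKM in Psma7 cKO GV oocytes. In eggs it read 15.5, 17.2, 19.2 and 17.5 FPKM in WT and 44.0, 26.0, 36.8 and 27.1 FPKM in Psma7 cKO. Again the GV groups overlapped and every Psma7 cKO egg lay above every WT egg. Here the egg values rest on 478 to 686 fragments in WT and on 827 to 1611 in Psma7 cKO. Lhx8 fell by 2.77 ± 0.11 on the log2 scale in WT (6.83-fold, adjusted p = 3.8e-09) and by 1.93 ± 0.16 in Psma7 cKO (3.80-fold, adjusted p = 8.5e-06). The share of the GV mean left in eggs was 14.6% in WT and 26.9% in Psma7 cKO.

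Sohlh1 (chr2:25842995-25847248, minus strand, 8 exons), which acts in germ cells before and at primordial follicle formation, was represented by 18 fragments in all 16 libraries together. WT GV oocytes held 1, 2, 4 and 1 of these, Psma7 cKO GV oocytes 2, 0, 1 and 1, WT eggs 0, 2, 0 and 1, and Psma7 cKO eggs 0, 0, 3 and 0. In the 6 libraries with 0 fragments, a count of 0 allows a level of up to 0.110 to 0.130 FPKM (3 fragments, counting error only). No group can be told from another at this depth, and Sohlh1 did not pass the filter of a mean of at least 1 FPKM, so that 7 of the 8 factors were tested.

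Its partner Sohlh2 (chr3:55182028-55209957, plus strand, 11 exons) was detected in every library, on 70 to 252 fragments. It read 7.00, 5.38, 4.39 and 4.77 FPKM in WT GV oocytes, 4.00, 6.75, 6.58 and 4.25 FPKM in Psma7 cKO GV oocytes, 4.24, 4.37, 5.36 and 4.59 FPKM in WT eggs and 6.32, 4.90, 2.22 and 3.50 FPKM in Psma7 cKO eggs. All 4 groups overlapped. The change from GV oocyte to egg was -0.20 on the log2 scale in WT (95% interval -0.55 to 0.15, adjusted p = 0.27) and -0.41 in Psma7 cKO (-1.15 to 0.32, adjusted p = 0.28), so neither passed the test.

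Tbpl2 (chr2:24071721-24096595, minus strand, 7 exons) read 26.7, 15.3, 20.9 and 18.3 FPKM in WT GV oocytes, 20.1, 17.4, 20.1 and 16.8 FPKM in Psma7 cKO GV oocytes, 14.5, 15.9, 14.5 and 16.1 FPKM in WT eggs and 14.8, 15.4, 17.2 and 18.8 FPKM in Psma7 cKO eggs. The genotypes overlapped at both stages, and the stages overlapped within each genotype, while Psma7 cKO GV oocytes lay above WT eggs. Tbpl2 passed the threshold for a fall during WT maturation, by 0.38 ± 0.15 on the log2 scale (adjusted p = 0.039), but the values overlapped and the two-sided exact permutation test gave p = 0.086. It did not pass in Psma7 cKO (-0.17, 95% interval -0.43 to 0.08, adjusted p = 0.20). The WT call was lost without WT GV replicate 1 or 3 or WT egg replicate 1, 2 or 3, with adjusted p up to 0.098 when WT GV replicate 1 was left out. Its size was close to the median change of all tested entries, which was -0.44 in WT.

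Gtf2a1l (chr17:88668660-88715152, plus strand, 9 exons) read 107, 96.6, 91.6 and 86.4 FPKM in WT GV oocytes and 128, 86.4, 114 and 95.7 FPKM in Psma7 cKO GV oocytes. In eggs it read 51.3, 56.3, 55.6 and 56.8 FPKM in WT and 55.8, 50.3, 59.2 and 57.8 FPKM in Psma7 cKO. Eggs lay below GV oocytes without overlap, and the genotypes overlapped. Gtf2a1l fell by 0.79 ± 0.08 on the log2 scale in WT (1.73-fold, adjusted p = 6.6e-06) and by 0.91 ± 0.13 in Psma7 cKO (1.88-fold, adjusted p = 0.00017). Of the 7 tested factors it had the narrowest interval for the genotype difference in eggs, 0.02 (-0.14 to 0.18).

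Taf4b (chromosome 18, 14783245 to 14900359, plus strand, 15 exons) read 8.11, 6.63, 4.25 and 4.98 FPKM in WT GV oocytes and 7.36, 5.78, 7.08 and 7.41 FPKM in Psma7 cKO GV oocytes. In eggs it read 3.07, 3.60, 3.19 and 3.64 FPKM in WT and 2.78, 3.36, 3.24 and 2.78 FPKM in Psma7 cKO. Every egg lay below every GV oocyte library, whichever the genotype. Taf4b fell by 0.79 ± 0.19 on the log2 scale in WT (1.73-fold, adjusted p = 0.0032) and by 1.18 ± 0.13 in Psma7 cKO (2.27-fold, adjusted p = 4.2e-05). The difference between these falls was -0.39 (95% interval -0.91 to 0.12, adjusted p = 0.43) and did not pass the test.

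Over maturation, then, 6 of the 7 tested factors fell in WT and 5 of 7 in Psma7 cKO, and none rose, also at an unadjusted p under 0.05 in limma or in the exact test. Falls were common among all entries: 52.4% of 10475 entries fell and 26.1% rose in WT, and 51.0% of 10748 fell and 23.0% rose in Psma7 cKO. At an unadjusted p under 0.05 in limma, 2788 entries rose in WT and 2563 in Psma7 cKO. The median change of the 7 was -0.79 in WT and -1.18 in Psma7 cKO on the log2 scale, beside -0.44 and -0.42 for all tested entries. Figla, Lhx8 and Nobox had the largest falls, and in WT only 2.71%, 7.59% and 12.0% of tested entries had lower log2 changes. In WT the germline forms of basal factors and Sohlh2 lay in the middle of the distribution, between the 40.4 and the 57.0 percentile. In Psma7 cKO Taf4b lay lower, at the 26.7 percentile, and Gtf2a1l at the 34.6 percentile, with Sohlh2 at 50.4 and Tbpl2 at 58.4.

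**Figure D2:**
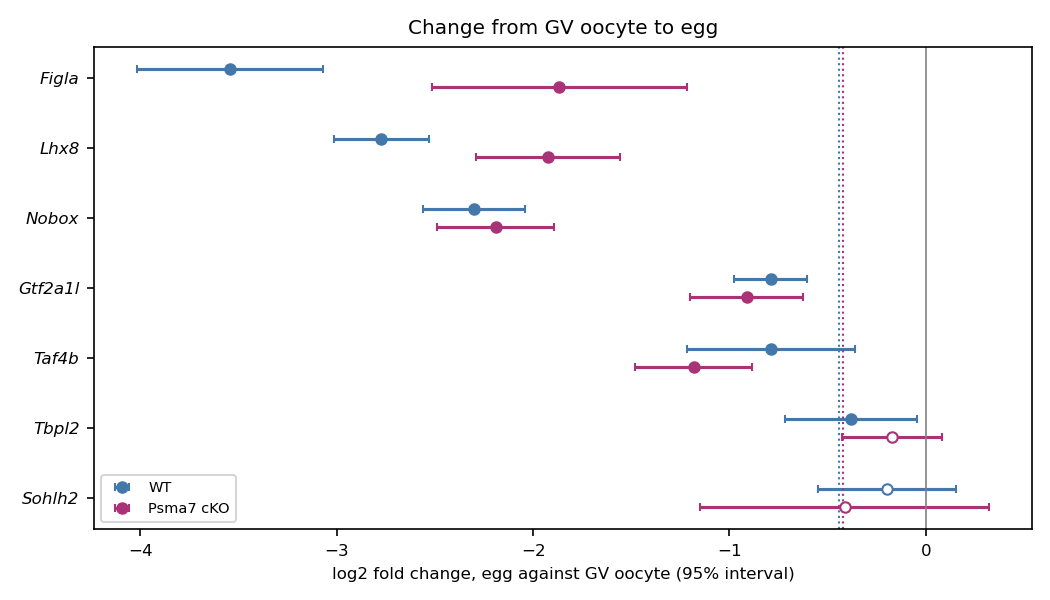
Log2 fold change from GV oocyte to egg (horizontal axis) with its 95% interval for the 7 tested factors, in WT (blue) and in Psma7 cKO (purple), where filled points passed the adjusted threshold and dotted lines mark the median of all tested entries (-0.44 and -0.42). Figla, Lhx8 and Nobox lie left of -1.5 in both genotypes, and the intervals of WT and Psma7 cKO do not meet for Figla and Lhx8.

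In GV oocytes none of the 7 tested factors differed between the genotypes, beside 0.118% of 11062 entries called in either direction. None passed at an unadjusted p under 0.05 in limma, beside 843 entries higher and 339 lower, and none in the exact permutation test. The log2 differences ran from -0.11 (Figla, 95% interval -0.48 to 0.27) to 0.24 (Taf4b, -0.19 to 0.68). For Lhx8 the interval was -0.16 to 0.30 and for Nobox -0.10 to 0.42, which leaves differences of up to 1.23-fold and 1.34-fold unresolved.

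In eggs 2 of the 7 were higher in Psma7 cKO than in WT and none was lower, beside 6.53% of 9492 entries higher and 1.49% lower. At an unadjusted p under 0.05 in limma 0 factors were lower, beside 835 entries, and 0 were lower in the exact test. Figla was 2.98-fold higher (log2 difference 1.57 ± 0.32, adjusted p = 0.031) and Lhx8 1.89-fold higher (0.92 ± 0.17, adjusted p = 0.026), each in 4 of 4 libraries and with the smallest two-sided exact permutation p that 4 against 4 libraries allow, 0.0286. Nobox was 0.27 higher on the log2 scale (95% interval -0.02 to 0.56, adjusted p = 0.19) and its values overlapped. The other 4 lay between -0.23 (Sohlh2, -0.88 to 0.42) and 0.11 (Tbpl2, -0.10 to 0.33). Both calls were lost when any WT egg library was left out (adjusted p 0.058 to 0.083), and that of Figla also without Psma7 cKO egg replicate 1 (0.056) or 4 (0.055), while the log2 differences stayed between 1.36 and 1.84 for Figla and between 0.77 and 1.03 for Lhx8.

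The difference between the genotype effects at the 2 stages passed for Figla (interaction 1.68 ± 0.38 on the log2 scale, adjusted p = 0.042, limma on all 16 libraries), 1 of 7 factors beside 1.07% of 10615 entries with a higher interaction. For Lhx8 it was 0.85 ± 0.20 and just missed the threshold (adjusted p = 0.051). None of the 7 had a lower interaction past the threshold, beside 20 of 10615 entries. At an unadjusted p under 0.05 in limma, Figla and Lhx8 were higher and none lower, beside 1347 entries higher and 534 lower. The Figla call held without WT GV replicate 2, WT egg replicate 2 or Psma7 cKO egg replicate 1 or 2 and was lost without any one of the other 12 libraries, with adjusted p between 0.0036 and 0.088 over the 16 fits.

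**Figure D3:**
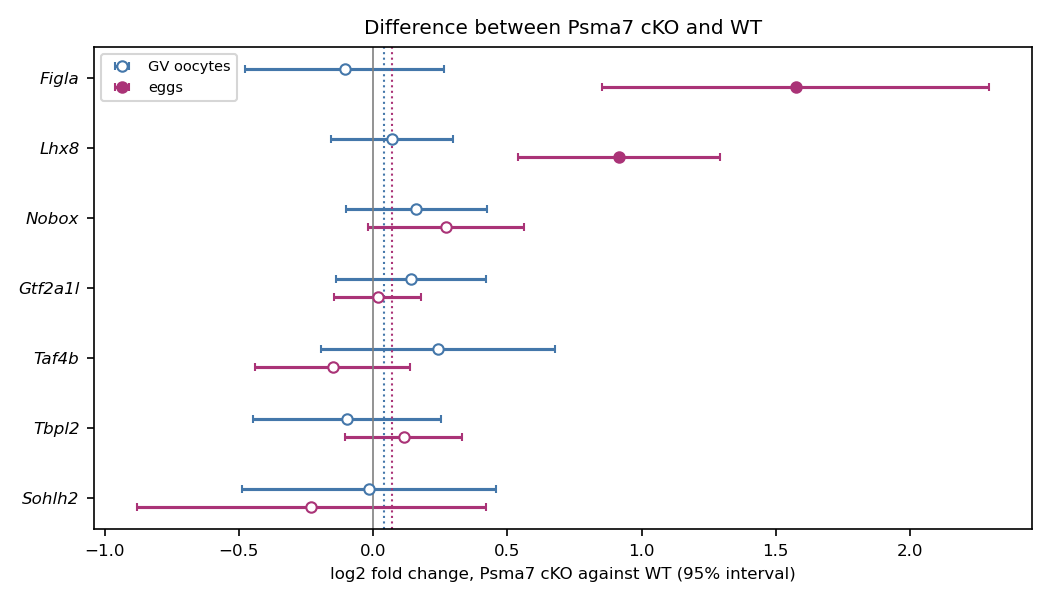
Log2 difference between Psma7 cKO and WT (horizontal axis) with its 95% interval for the 7 tested factors in GV oocytes (blue) and in eggs (purple), where filled points passed the adjusted threshold and dotted lines mark the medians of all tested entries. Only Figla and Lhx8 in eggs are filled, and all 7 intervals in GV oocytes include 0.

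Other transcripts that are lost in maturation also lay higher in Psma7 cKO eggs. For the 118 entries whose mean over both genotypes was over 10-fold lower in eggs than in GV oocytes (the factors left out, a set chosen after seeing the data), the median log2 ratio to the mean of all 8 eggs was 0.085, -0.16, 1.37 and 0.50 in Psma7 cKO eggs 1 to 4, and -0.47, -0.45, -0.42 and -0.45 in WT eggs 1 to 4. By the same measure Figla and Lhx8 fell less than 10-fold, so these entries fell more steeply than either factor. Figla followed the order of these medians over the 4 libraries, whereas Lhx8 was highest in replicate 1 and not in replicate 3. The number of entries at or over 1 FPKM was 9387 to 10013 in Psma7 cKO eggs and 9044 to 9366 in WT eggs. The part of this shared shift in the differences of Figla and Lhx8 was not tested. How far stages were mixed in the Psma7 cKO egg pools was not tested either.

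The germline basal factors were then set against their ubiquitous counterparts within each library, where scaling between libraries cancels. The ratio of Gtf2a1l to Gtf2a1 was 3.68 in WT GV oocytes (geometric mean, range 2.91 to 5.59) and 0.957 in WT eggs (0.797 to 1.15), as Gtf2a1l fell while Gtf2a1 rose by 1.15 on the log2 scale. In Psma7 cKO it was 3.40 in GV oocytes and 1.02 in eggs. The ratio of Taf4b to Taf4 was 0.933 in WT GV oocytes (0.636 to 1.49) and 0.199 in WT eggs (0.168 to 0.220), and 1.10 and 0.234 in Psma7 cKO, and Taf4 rose by 1.44 in WT and by 1.04 in Psma7 cKO. In WT and Psma7 cKO respectively, the ratio was lower in eggs by 3.85-fold and 3.33-fold for Gtf2a1l and by 4.70-fold and 4.67-fold for Taf4b, with no overlap between stages.

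For Tbpl2 and Tbp the mean ratio was higher in eggs. It was 0.416 in WT GV oocytes (0.323 to 0.584) and 0.675 in WT eggs (0.639 to 0.775), as Tbp fell by 1.08 on the log2 scale in WT and Tbpl2 by 0.38. In Psma7 cKO the ratio was 0.421 in GV oocytes (0.390 to 0.474) and 0.516 in eggs (0.470 to 0.570), and the egg values of the genotypes did not overlap. Tbp was higher in Psma7 cKO eggs by 0.50 on the log2 scale (adjusted p = 0.035). Of the 12 ratio tests (3 pairs in 4 comparisons), 6 reached the smallest two-sided exact permutation p of 0.0286, which is 0.057 after Benjamini-Hochberg adjustment, so that none passed 0.05 after adjustment. These 6 were both maturation comparisons of Gtf2a1l and Taf4b, and for Tbpl2 the WT maturation and the genotype difference in eggs.

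**Figure D4:**
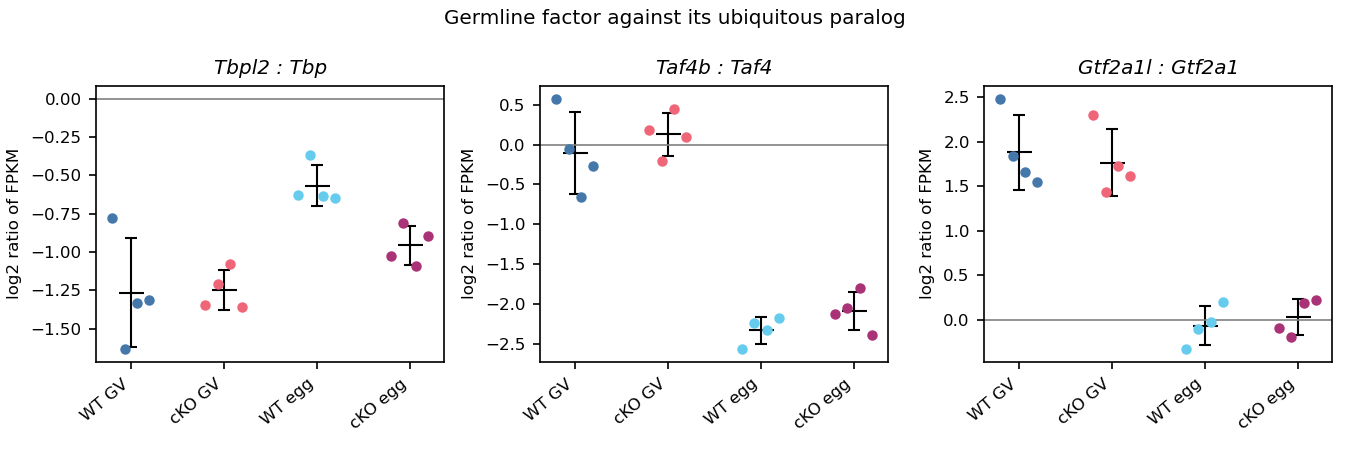
Log2 ratio of FPKM (vertical axis, its own scale in each panel, 0 being equal levels) of Tbpl2 to Tbp, Taf4b to Taf4 and Gtf2a1l to Gtf2a1 in each library, with points for replicates 1 to 4 from left to right and bars for the mean and SD of each group (n = 4). The ratios of Taf4b and Gtf2a1l are lower in eggs than in GV oocytes of both genotypes, and that of Tbpl2 is higher in WT eggs (mean -0.57) than in any other group.

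Other basal transcription factors, 19 genes in 20 entries, went mostly up as a share of the library. Of 18 tested entries, 12 rose and 4 fell in WT maturation with a median of 0.58, and 11 rose and 2 fell in Psma7 cKO with a median of 0.65, beside 26.1% of all tested entries rising and 52.4% falling in WT (Psma7 cKO, 23.0% and 51.0%). The largest rises in WT were those of Gtf2a2, the small TFIIA subunit (1.63), and Taf4 (1.44), and the largest falls those of Tbp (-1.08) and Taf12 (-0.99). In Psma7 cKO they were Gtf2a2 (1.68) and Taf13 (1.18), and Taf12 (-0.54) and Tbp (-0.46). The TBP-like factor Tbpl1 rose by 0.80 in WT and by 1.14 in Psma7 cKO. Between genotypes none of 19 entries passed in GV oocytes, and in eggs 1 of 18 was higher (Tbp) and 1 lower (Taf4, with a log2 difference of -0.39, adjusted p = 0.049), beside 6.53% and 1.49% of all tested entries. With 1 egg library left out, these calls held in 1 of 8 fits each, that without Psma7 cKO egg replicate 2, with adjusted p up to 0.10 for Tbp and 0.13 for Taf4.

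The dimer partners and antagonists of the helix-loop-helix and LIM factors were 9 genes. In WT maturation 5 of 6 tested fell and 1 rose, beside 52.4% and 26.1% of all tested entries, the largest falls being those of Id3, which blocks E-box binding (-1.57), and Ldb1, the cofactor of LIM homeodomain proteins (-1.31, with 3 of 4 WT egg values set to the floor), while Ldb2 rose by 0.51. In Psma7 cKO 4 of 7 fell and 1 rose, close to the 51.0% and 23.0% of all tested entries, led by Id3 (-2.04) and Tcf3, an E-protein partner (-1.12), and Ldb2 rose by 0.60. None passed in either genotype comparison.

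Of 18 oocyte genes (21 entries) described as depending on these factors, 19 entries were tested. In WT 10 fell and 5 rose, shares like the 52.4% and 26.1% of all tested entries. In Psma7 cKO 11 fell and 6 rose, beside 51.0% and 23.0%. Fgf8, a growth factor that oocytes send to cumulus cells, fell by 4.63 on the log2 scale in WT, and Zp3, a zona pellucida protein, fell by 3.31. In Psma7 cKO the lowest log2 changes were those of Fgf8 (-3.26) and Zp1 (-2.39), with -2.17 for Zp3. The largest rises were those of Oosp1 (1.80 in WT, 1.97 in Psma7 cKO) and Rfpl4 (1.51 and 1.62). Between genotypes none passed in GV oocytes, and in eggs 3 of 19 were higher in Psma7 cKO and none lower, beside 6.53% and 1.49% of all tested entries.

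These 3 were Zp3, Fgf8 and Pou5f1. Zp3 read 407, 487, 411 and 321 FPKM in WT eggs and 781, 722, 1314 and 974 FPKM in Psma7 cKO eggs, 2.29-fold higher (adjusted p = 0.020). Fgf8 read 2.83, 3.39, 2.65 and 2.21 FPKM in WT eggs and 5.80, 5.36, 17.2 and 8.14 FPKM in Psma7 cKO eggs, 2.97-fold higher (adjusted p = 0.033). The first of 3 Pou5f1 entries read 5.32, 6.73, 6.83 and 6.20 FPKM in WT eggs and 11.8, 9.55, 9.32 and 7.75 FPKM in Psma7 cKO eggs, 1.52-fold higher (adjusted p = 0.041). For each of the 3 genes all 4 Psma7 cKO eggs lay above all 4 WT eggs, and replicate 3 was the highest Psma7 cKO egg for Zp3 and Fgf8, as it was for Figla. Replicate 3 also had the highest median of the 118 steeply lost entries described above (1.37), so this rank is not particular to these genes. With 1 egg library left out, the Zp3 call was lost without WT egg replicate 1, 3 or 4 (adjusted p up to 0.070). Fgf8 kept its call only without Psma7 cKO egg replicate 2 or 3 (up to 0.097 otherwise) and Pou5f1 only without Psma7 cKO egg replicate 4 (up to 0.12 otherwise). Zp1 and Zp2 overlapped between the genotypes and missed the threshold (adjusted p = 0.058 and 0.055). In the interaction Zp3 alone of this list passed (1.14 ± 0.22 on the log2 scale, adjusted p = 0.023), and without Psma7 cKO GV replicate 3 its adjusted p was 0.051.

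Among the factors, Taf4b and Gtf2a1l had the most similar patterns over the 16 libraries, with a root mean square difference of 0.209 between their centred log2 levels (floored at 1 FPKM), followed by Nobox and Lhx8 with 0.276. Figla and Sohlh2 were the most distant pair (1.52). Among 10615 entries, the nearest to Nobox were Otub2 (0.121) and Bag4 (0.130), and to Gtf2a1l Crbn (0.111) and 6530411M01Rik (0.112). Lhx8 had Tmem106c (0.137) and Srprb (0.137) as its nearest entries, and Figla had Naa38 (0.178) among its nearest. Naa38 averaged 22.3 FPKM in WT GV oocytes, 1.88 FPKM in WT eggs and 7.36 FPKM in Psma7 cKO eggs, and Tmem106c 48.1, 6.50 and 13.8 FPKM. These entries were picked for their likeness, so a pattern shared with the factor is no result about them. The nearest entries were C630043F03Rik (0.132) and Tln2 (0.141) for Tbpl2, Zfp113 (0.146) and Dolk (0.149) for Taf4b, and Slc25a39 (0.216) and Ina (0.243) for Sohlh2. For 6530411M01Rik, C630043F03Rik, Tln2, Zfp113 and Dolk the WT egg mean was under 1 FPKM, so their likeness rests on the floor. Dolk, for example, averaged 2.06 FPKM in WT GV oocytes and 0.219 FPKM in WT eggs, a larger relative drop in the mean than that of Taf4b, and 6530411M01Rik 1.74 and 0.274 FPKM, a larger one than that of Gtf2a1l.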

How the data were processed

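The authors deposited 1 table of FPKM values for 16 Smart-seq2 libraries, and the submitters' processing notes name TopHat2 2.1.1, Cufflinks 2.2.1 and mm10. The gene annotation is not given in the sources used here. ERCC RNA was added at lysis, but the table holds 0 ERCC entries, so values were compared as shares of a library. Columns were matched to samples by the column names in the labels. The factors and gene lists were chosen with earlier results of these data known.

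Values below 1 FPKM were set to 1 and log2-transformed, so fold changes of low genes are understated. Entries averaging 1 FPKM or more in the compared libraries were fitted with limma 3.58.1 (R 4.3.3; moderation with an intensity trend), 8 libraries per comparison and all 16 for the interaction. A Benjamini-Hochberg adjusted p under 0.05 over all tested entries was the threshold. Adjusted p-values in the text are from limma unless named otherwise, and they measure the spread between pools. Ratios were tested by exact two-sided permutation (70 arrangements, smallest p 0.0286). The limma script was tested on simulated data. The named genes were the 8 factors, Psma7, the ubiquitous counterparts, list members past the threshold in a genotype comparison or the interaction, for maturation the 2 highest and 2 lowest of each list, and the 2 entries nearest to each factor in pattern, of which 1 is not reported here.

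The depth of a library came from the spacing of its lowest FPKM values in genes with 1 GENCODE M21 transcript. The factors' FPKM then gave whole fragments in every library, with a largest departure of 9e-12 from a whole number, at gene lengths of 1286 (Figla) to 5589 bases (Taf4b). Promoters came from RefSeq (GRCm38.p6, 7 of 8 matched) and transcript ends and gene positions from GENCODE M21 (GRCm38). Python 3.11.15 was used outside limma. The alternatives tried were a floor of 0.1 FPKM, 1 FPKM added, median-ratio rescaling, dropping the filter or raising it to 5 FPKM, no trend, a replicate block, entries summed by gene name, all 16 libraries in one fit, and each library left out.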

Additional observations from a re-analysis of the deposited data

Results flagged for a closer look

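In a comparison of each library with the other 3 of its group (8 factors in 4 groups, 32 in all, of which chance marks about 1 in 20), Sohlh1 in Psma7 cKO eggs stood out, because replicate 3 read 0.120 FPKM and the other 3 were listed at 0. That value is 3 fragments. The genotype difference in eggs minus that in GV oocytes was 1.68 on the log2 scale for Figla and 1.14 for Zp3, and both passed the interaction test of limma at adjusted p = 0.042 and 0.023.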

How the results depend on the processing

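The falls of Nobox, Figla, Lhx8, Gtf2a1l and Taf4b during maturation passed under every alternative that tested them and with any library left out, in both genotypes. The count of factors higher in Psma7 cKO eggs, 2 in the reported fit, was 1 with a mean of at least 5 FPKM (Figla was then not tested), 0 without a filter and 0 with a replicate block, and ran from 0 to 2 with 1 library left out. The count for the interaction, 1 as reported, was 0 with 1 FPKM added, without a filter and with a replicate block, 2 with median-ratio rescaling, with a mean of at least 5 FPKM and with entries summed by gene name (Lhx8 then passed at 0.040, 0.039 and 0.0498), and ran from 0 to 2 with 1 library left out. Without a filter most tested entries had no variance after the floor, which makes that fit unreliable.

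With the replicate block the adjusted p in eggs was 0.076 for Figla and 0.053 for Lhx8, in the interaction 0.069 for Figla, and in WT maturation 0.060 for Tbpl2. Same-numbered libraries did not deviate together (correlations of deviations -0.50 to 0.29), so the numbers were not treated as pairs. The genotype difference of Gtf2a1l in eggs was -0.0030 with median-ratio rescaling, against 0.02 as reported. With 1 library left out, values near 0 changed sign: in GV oocytes Sohlh2 (-0.14 to 0.12), Tbpl2 (-0.22 to 0.044), Figla (-0.22 to 0.027), Lhx8 (-0.017 to 0.14) and the ratios Gtf2a1l to Gtf2a1 (-0.29 to 0.087) and Tbpl2 to Tbp (-0.11 to 0.18), in eggs Gtf2a1l (-0.015 to 0.067) and Sohlh2 (-0.46 to 0.047), and in the interaction Sohlh2 (-0.44 to 0.063). The cause of these changes was not tested. With 3 libraries against 4 the exact test cannot go below 0.057. Depth limits Sohlh1, and Figla in WT eggs.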
